A study of Yarrowia lipolytica with 11 samples.

Results

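Storage lipid in the oleaginous yeast Yarrowia lipolytica is closed off by a small set of acyltransferases, and 4 of their genes are described here out of 7135 genes counted: DGA1 (YALI0_E32769g), DGA2 (YALI0_D07986g), LRO1 (YALI0_E16797g) and ARE1 (YALI0_F06578g). They were taken by locus tag, and all 4 were among the 6301 genes that passed the filter on low counts. The question was whether transcripts of the other acyltransferases differed in a strain that overexpresses DGA1.

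Triacylglycerol is made when the last acyl chain is joined to diacylglycerol. DGA1 and DGA2 encode diacylglycerol acyltransferases that take this chain from acyl-CoA and belong to separate protein families, DGAT2 for DGA1 and DGAT1 for DGA2. LRO1 encodes a phospholipid:diacylglycerol acyltransferase, which takes the chain from a phospholipid instead. ARE1 encodes a sterol acyltransferase, which joins an acyl chain to a sterol to give the steryl esters that are stored beside triacylglycerol in lipid droplets. The locus tags carry no names in the tables, and the names come from published assignments that no reference table could test here. The promoter of the DGA1 plasmid is not given in the sources used here.

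The mutant was a pex10 deletion strain that carried a plasmid for overexpression of DGA1, and the comparison strain was labelled wild type (wt). Both were grown in YPC medium to exponential phase, with 1 g/L hexanoic acid or untreated. There were 3 libraries of the mutant with acid, 2 of the untreated mutant, 3 of the wild type with acid and 3 of the untreated wild type, from separate colonies per the labels. The deletion and the plasmid were always present together, so their effects cannot be told apart.

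The 11 libraries held between 9988288 and 17519857 counts each. Levels are given as CPM, a library's counts scaled to a common total, after TMM scaling, and RNA came from whole cultures, in which fewer cells using a gene and less RNA per cell cannot be told apart. PEX10, the deleted gene, averaged 6.33 ± 1.49 CPM in the mutant and 14.0 ± 4.09 CPM in the wild type with acid (SD, n = 3 each). Without acid it averaged 6.18 ± 1.65 CPM in the mutant (n = 2) and 15.5 ± 4.38 CPM in the wild type (n = 3), and mutant libraries still held 66 to 123 reads. In each group of 3, 1 library stood apart from the other 2 over all genes. These were replicate 1 of the mutant with acid, replicate 1 of the wild type with acid and replicate 2 of the untreated wild type, whose chi-square per degree of freedom against their partners was 91.0 to 174, against 38.8 to 54.1 between the partners. The 2 untreated mutant libraries were as far from each other, at 162. Where leaving out the 3 changed a call or moved a count of named genes by over 1.5 times, both values are given.

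DGA1 was far higher in every mutant library than in any wild-type library. With acid it stood at 7807, 3412 and 3012 CPM in the mutant, against 111, 120 and 174 CPM in the wild type. Without acid it stood at 3221 and 3284 CPM in the mutant, against 153, 227 and 184 CPM in the wild type. The strains did not overlap in either condition. The mutant was 35.1-fold higher with acid (log2 5.14 ± 0.41 SE, edgeR adjusted p = 8.69e-05) and 17.3-fold higher without it (4.11 ± 0.40, adjusted p = 1.91e-05). Without the 3 libraries that stood apart, the log2 difference was 4.46 with acid and 4.28 without. DGA1 reads made up 0.315% to 0.771% of the counts in mutant libraries and 0.0109% to 0.0227% in wild-type libraries. The tables give 1 count for DGA1 with both copies in it, chromosomal and plasmid-borne, so how the chromosomal DGA1 gene itself behaved in the mutant was not measured.

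Within the mutant, 1 library carried most of the spread of DGA1. Replicate 1 with acid, at 7807 CPM, lay 2.29-fold above replicate 2 of the same group, while the other 4 mutant libraries lay between 3012 and 3412 CPM. In that library DGA2 was at 85.1, LRO1 at 105.8 and ARE1 at 282.6 CPM. The 2 other treated mutant libraries had DGA2 at 68.8 and 62.5 CPM, LRO1 at 108 and 103 CPM, and ARE1 at 199.6 and 146 CPM. Among the treated mutant libraries, DGA2 and ARE1 were therefore highest in the library with most DGA1, and LRO1 was not. Untreated mutant replicate 2 had more of both, with DGA2 at 91.2 and ARE1 at 353 CPM, while its DGA1 was at 3284 CPM. With 3 treated libraries the shared order was not tested.

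**Figure D1:**
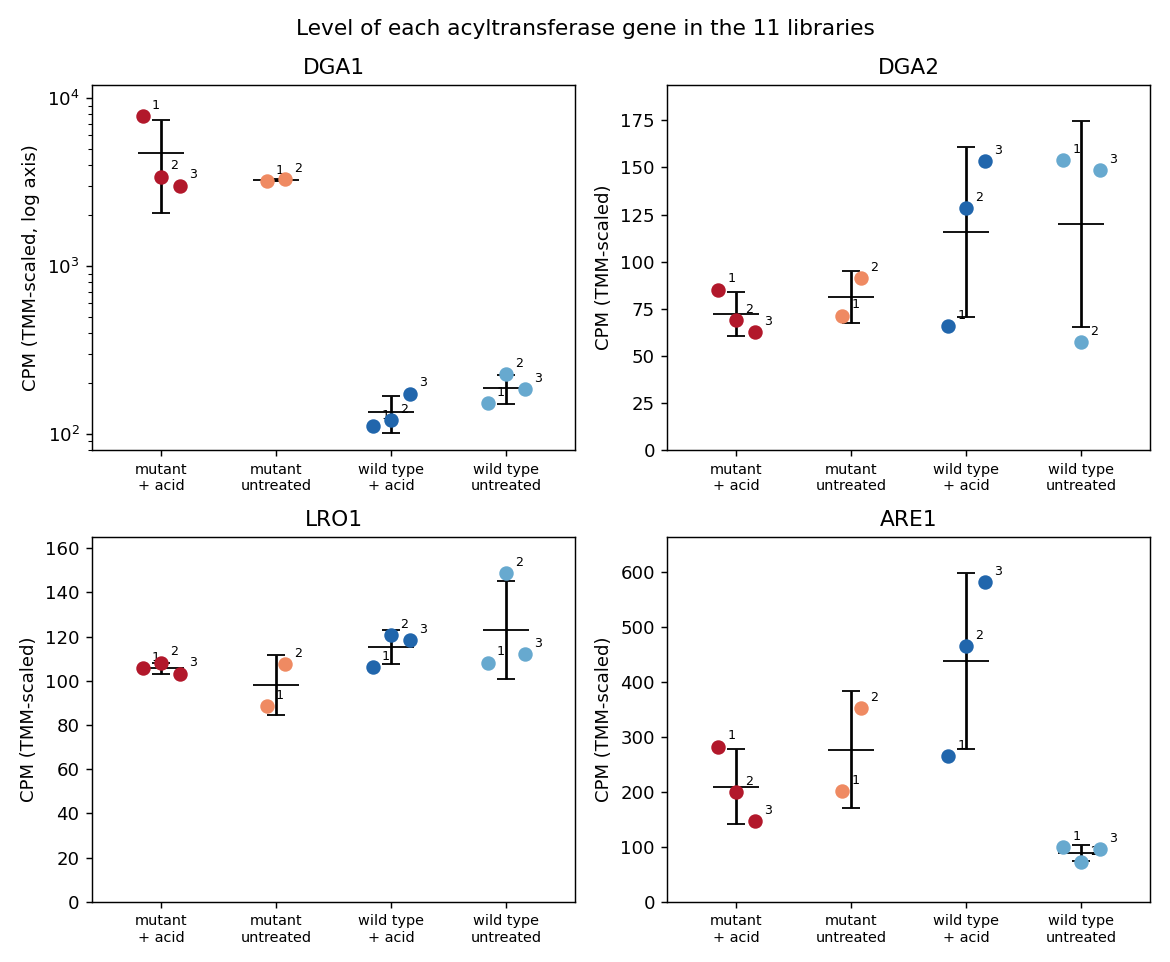
Level of DGA1, DGA2, LRO1 and ARE1 (CPM, TMM-scaled) in each library, by group, with a log axis for DGA1 only. Points are libraries with their replicate number, and bars are the mean ± SD (n = 3, or n = 2 for the untreated mutant). DGA1 separates the strains, ARE1 separates the untreated wild type from the other 3 groups, and LRO1 stays between 88.6 and 148.6 CPM.

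Acid itself did not move DGA1 past the test in either strain. In the mutant the response was 0.54 ± 0.39 on the log2 scale (95% interval −0.31 to 1.40, adjusted p = 0.377), and it was −0.026 without replicate 1 of the treated mutant. In the wild type, where only the chromosomal gene is counted, DGA1 averaged 135 ± 33.7 CPM with acid and 188 ± 37.5 CPM untreated. This difference of −0.48 ± 0.35 (interval −1.23 to 0.28) did not pass (adjusted p = 0.257), and the groups overlapped. The responses of the strains differed by 1.02 ± 0.52 (adjusted p = 0.171), and by 0.18 without the libraries that stood apart.

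DGA2, the second acyl-CoA-dependent enzyme gene, did not pass as higher or lower in the mutant with all libraries, and its means were lower there. With acid it stood at 85.1, 68.8 and 62.5 CPM in the mutant, against 65.7, 128 and 153.5 CPM in the wild type. Without acid it stood at 71.4 and 91.2 CPM in the mutant, against 154, 57.1 and 149 CPM in the wild type. In each wild-type group 2 libraries lay above all mutant libraries, and 1 lay among or below them. The mutant-over-wild-type ratio was 0.623 with acid (95% interval 0.355 to 1.09, log2 −0.68 ± 0.37, adjusted p = 0.257) and 0.678 without (0.359 to 1.28, log2 −0.56 ± 0.42, adjusted p = 0.309), so neither difference passed.

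The low wild-type values of DGA2 came from replicate 1 with acid and from untreated replicate 2, both among the libraries that stood apart over all genes. With those 2 and replicate 1 of the treated mutant left out, DGA2 passed as lower in the mutant, at −1.09 with acid (edgeR adjusted p = 0.00785) and −0.89 without (adjusted p = 0.00656). That choice of libraries was made after their values were seen, and it removes the lowest DGA2 value of each wild-type group. Leaving out either wild-type library alone gave −0.97 with acid and −0.90 without, and neither passed. DGA2 did not pass for acid in either strain. It averaged 72.1 ± 11.7 CPM with acid and 81.3 ± 14.0 CPM untreated in the mutant, and 115.9 ± 45.3 CPM with acid and 120.0 ± 54.5 CPM untreated in the wild type. The responses were −0.17 ± 0.41 in the mutant (95% interval −1.07 to 0.73, adjusted p = 0.823) and −0.050 ± 0.37 in the wild type (−0.86 to 0.76, adjusted p = 0.914). The sign of each changed in some of the other fits.

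LRO1, the phospholipid-dependent route, varied least of the 4 genes, with a root-mean-square spread of 0.173 log2 units over the 11 libraries, against 0.535 for DGA2, 0.923 for ARE1 and 2.34 for DGA1. With acid it stood at 105.8, 108 and 103 CPM in the mutant, against 106, 121 and 118 CPM in the wild type. Untreated, it had 88.6 and 107.6 CPM in the mutant, against 108.2, 148.6 and 112 CPM in the wild type. The untreated groups just failed to overlap, with the mutant lower, as did 59.8% of all tested genes in either direction in this comparison. The mutant-over-wild-type ratio was 0.919 with acid (95% interval 0.719 to 1.17, adjusted p = 0.666) and 0.798 without (0.606 to 1.05, adjusted p = 0.175). The interval without acid thus reaches no further upward than 1.05-fold, and that with acid no further than 1.17-fold. The log2 difference with acid was −0.12 ± 0.16 and turned to 0.020 when libraries were scaled by total counts only, a scaling that moved the median of all genes by 0.13 in this comparison. Responses to acid were 0.11 ± 0.18 in the mutant (adjusted p = 0.742) and −0.095 ± 0.16 in the wild type (adjusted p = 0.634).

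ARE1, the sterol acyltransferase gene, was the only one of DGA2, LRO1 and ARE1 that passed in any of the 5 comparisons with all libraries. Without acid it stood at 201.4 and 353 CPM in the mutant, against 99.9, 72.9 and 95.6 CPM in the wild type. Both mutant libraries lay above all 3 wild-type libraries. The mutant was 3.10-fold higher (95% interval 1.79 to 5.37, log2 1.63 ± 0.36, edgeR adjusted p = 0.00474). The untreated mutant had 2 libraries that differed 1.75-fold in ARE1, and without its replicate 2, the higher one, the difference was 1.17 and no longer passed (adjusted p = 0.0659). Without the libraries that stood apart it was 1.51 (adjusted p = 0.00646).

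With acid the order of the strains in ARE1 was the other way round. The mutant stood at 282.6, 199.6 and 146 CPM, against 265.7, 466 and 583 CPM in the wild type. The groups overlapped in 1 library each, replicate 1 in both. The mutant-over-wild-type ratio was 0.478 (95% interval 0.289 to 0.791, log2 −1.06 ± 0.33), which did not pass over all genes in edgeR (adjusted p = 0.0623, unadjusted p = 0.00785). It passed with DESeq2 (−1.08, adjusted p = 0.0158). It also passed without replicate 1 of the treated mutant (−1.33, adjusted p = 0.0414), without replicate 1 of the treated wild type (−1.32, adjusted p = 0.0256) and without all 3 libraries that stood apart (−1.59, adjusted p = 0.0127). Over the single libraries left out, the adjusted p ran from 0.0256 to 0.231.

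The wild type raised ARE1 with acid, whereas the response of the mutant did not pass. In the wild type it averaged 438 ± 161 CPM with acid and 89.5 ± 14.5 CPM untreated (SD, n = 3 each), a 4.90-fold difference (log2 2.29 ± 0.34, adjusted p = 0.000153) in which the groups did not overlap. In the mutant it averaged 209.5 ± 68.6 CPM with acid (n = 3) and 277 ± 107 CPM untreated (n = 2). These groups overlapped, with a log2 response of −0.40 ± 0.36 (interval −1.20 to 0.39, adjusted p = 0.495). The response of the mutant minus that of the wild type was −2.70 ± 0.49 (adjusted p = 0.00259). This difference passed in every fit that was run, including all 11 that left out 1 library, where it ran from −3.04 to −2.24.

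**Figure D2:**
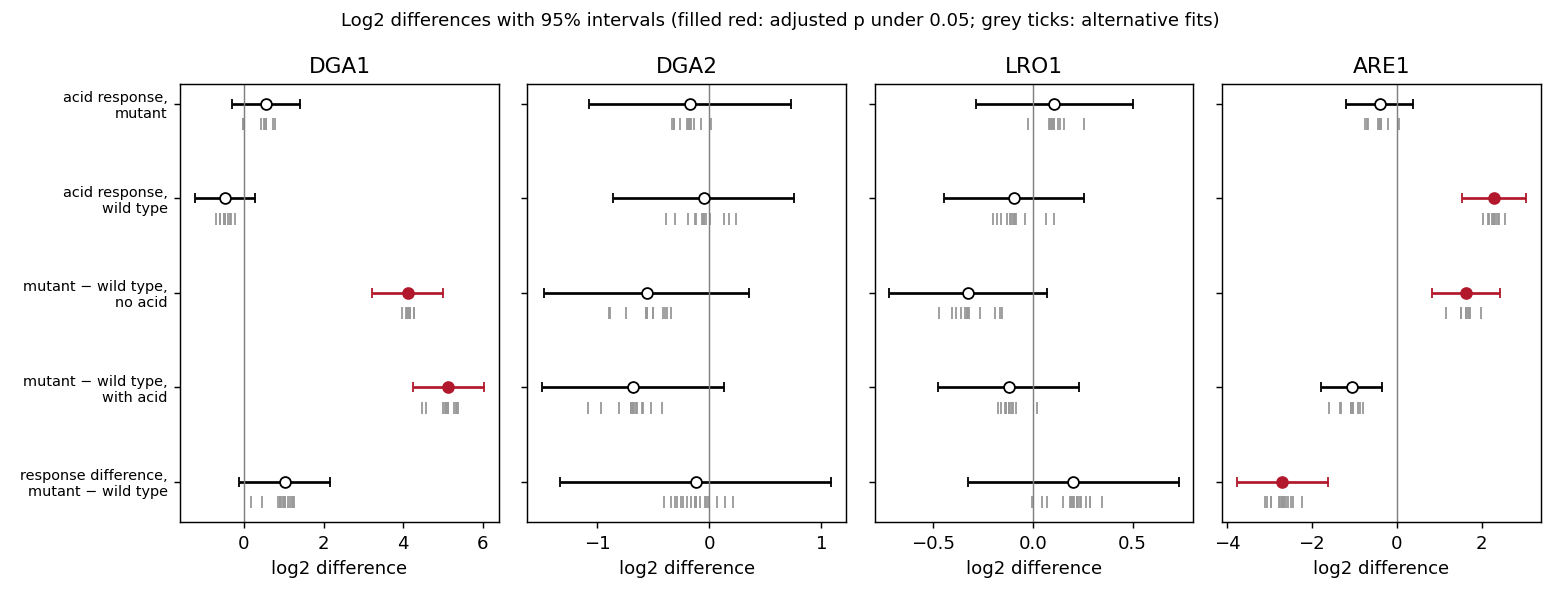
Log2 differences of the 4 genes in the 5 comparisons (circles) with 95% intervals from the edgeR fit to all 11 libraries, filled red where the adjusted p was under 0.05. Grey ticks below each circle are the same value in the alternative fits, and the horizontal scale differs between panels. The ARE1 values for acid in the wild type (2.29), for the untreated strains (1.63) and for the response difference (−2.70) are the only ones that passed outside DGA1.

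In order of mean level, DGA1 ran from the mutant with acid through the untreated mutant and the untreated wild type to the wild type with acid. Neighbours in this order overlapped except at the step between the strains. For DGA2 the order was untreated wild type, wild type with acid, untreated mutant and mutant with acid, and all neighbours overlapped. LRO1 had both wild-type groups first, then the mutant with acid and the untreated mutant, again with all neighbours overlapping. For ARE1 the order was wild type with acid, untreated mutant, mutant with acid and untreated wild type, and the last step, 2.34-fold in the mean, was the only one without overlap. ARE1 in the treated mutant was thus above the untreated wild type in every library, at 146 to 282.6 CPM against 72.9 to 99.9 CPM.

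Across the 5 comparisons, the counts for the 4 genes are read against how many genes changed in all. Without acid 2 of 4 passed between the strains, DGA1 and ARE1, both higher in the mutant, while 38.1% of all tested genes passed. With acid 1 of 4 passed, DGA1, while 10.7% of all tested genes did. Because the mutant overexpresses DGA1 by construction, its strain calls carry no information on the set. Leaving DGA1 aside, only ARE1 passed between the strains without acid, and no gene passed with acid. In the response to acid, 0 of 4 passed in the mutant with edgeR (0 at an unadjusted p under 0.05, and 0 with DESeq2), where 17.6% of all genes passed, and 1 of 4 passed in the wild type, where 56.5% did. The difference in response passed for 1 of 4 and for 25.5% of all genes. In the comparison without acid, a call such as that of ARE1 was common, since 22.8% of all genes were higher in the mutant. Groups did not overlap for 3 of 4 genes between the untreated strains (DGA1, LRO1 and ARE1, background 59.8%). Between the treated strains this held for 1 of 4 (DGA1, 37.5%). For DGA1 the lack of overlap between strains is again given by the construction. For acid, groups did not overlap for 1 of 4 in the wild type (ARE1, 62.9%) and 0 of 4 in the mutant (49.2%). By size, the ARE1 change exceeded that of 88.6% of tested genes without acid, and the response difference that of 96.0%.

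The libraries of DGA2 and ARE1 fell in the same order inside each group. In all 4 groups the library with most DGA2 was the one with most ARE1, and so on down, DGA1 shared its library order with each of them in 3 of 4 groups, and LRO1 shared its own with each of them in 1 of 4. The pattern was noticed after the values were seen. Of 6300 other tested genes, 69 (1.10%) had the same library order as ARE1 in all 4 groups.

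Likeness to other genes was measured as the root-mean-square difference between mean-centred log2 CPM profiles over the 11 libraries. The files and the reference table do not pair these other locus tags with names, so only the nearest gene to each is given by its tag. Each distance is given beside the gene's own spread, and the distances are not ranked between the 4 genes. The nearest gene to LRO1, whose spread was 0.173, was YALI0_E23738g at 0.076 log2 units, against a median of 0.524 over all 6300 other genes. The nearest gene to DGA2 (spread 0.535), YALI0_F27753g, was at 0.222 (median 0.752). The nearest to ARE1 (spread 0.923) was YALI0_E33429g, at 0.224 (median 1.02). It averaged 52.5 CPM in the mutant with acid, 90.7 CPM in the untreated mutant, 123 CPM in the wild type with acid and 21.7 CPM in the untreated wild type. Its group means had the same order as those of ARE1. Each nearest gene was picked for likeness over these same libraries, so its small distance or shared order is no separate result. For DGA1 (spread 2.34) the nearest gene, YALI0_E12045g, was at 0.887 (median 2.39). In the wild type YALI0_E12045g averaged only 0.418 CPM with acid and 0.375 CPM untreated. Its log2 response to acid in the mutant was −1.45, against 0.54 for DGA1. Among the 4 acyltransferase genes the smallest distance was 0.554, between DGA2 and LRO1. That distance exceeded the spread of either gene, so it does not show likeness between them.

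**Figure D3:**
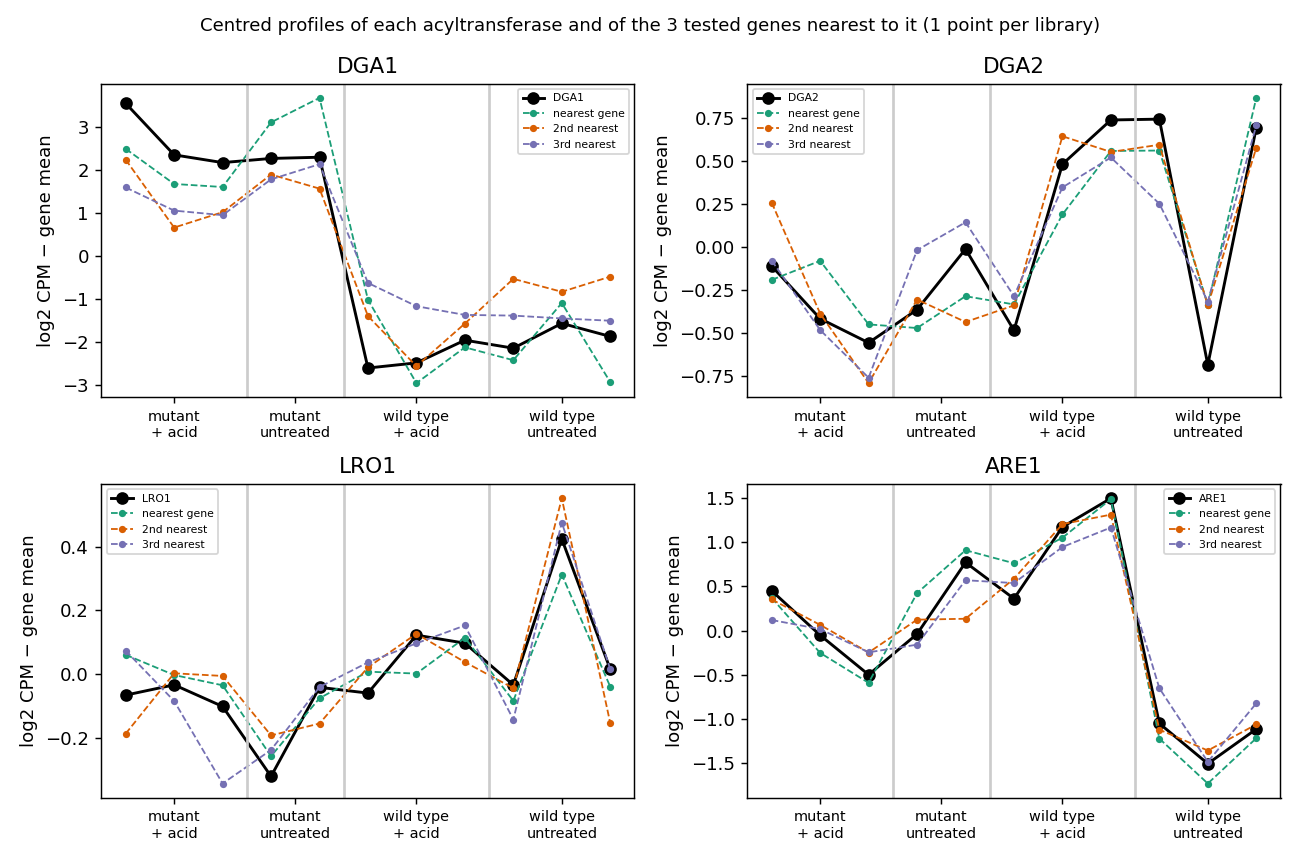
Mean-centred log2 CPM of each acyltransferase gene (black) and of the 3 tested genes nearest to it (colours), 1 point per library, with vertical lines between groups; lines only join the points of 1 gene. The genes nearest to ARE1 lie within 0.224 to 0.246 log2 units of it (root-mean-square), and those nearest to DGA1 within 0.887 to 1.12.

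The genes with locus tags directly beside that of DGA1, which follow the chromosome, did not show a change of its size. The next gene upward in tag number averaged 166.8 ± 13.9 CPM in the mutant and 81.7 ± 16.8 CPM in the wild type with acid (n = 3 each). Without acid it averaged 100.05 ± 33.1 CPM in the mutant (n = 2) and 40.2 ± 15.6 CPM in the wild type (n = 3). It passed as higher in the mutant both with acid (1.03 ± 0.30, adjusted p = 0.0469) and without (1.31 ± 0.32, adjusted p = 0.00821). The gene on the other side did not pass (0.82 ± 0.33, adjusted p = 0.138 with acid, and −0.70 ± 0.38, adjusted p = 0.158 without). The gene 2 tags upward also passed as higher in the mutant without acid (1.19 ± 0.25, edgeR adjusted p = 0.00323). So did the gene 2 tags downward (0.79 ± 0.27, edgeR adjusted p = 0.0392), and neither of them passed with acid. Without acid 22.8% of all tested genes passed as higher. The neighbouring genes were looked up after the DGA1 values were seen, and whether the plasmid carries sequence of any of them was not tested.

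In the comparison of untreated strains, 3 of 6 genes of glycerol and phosphatidic acid supply passed, 1 higher and 2 lower, beside 38.1% of all tested genes. GUT1, glycerol kinase, averaged 1851 ± 717 CPM in the mutant (n = 2) and 703.8 ± 53.4 CPM in the wild type (n = 3), a log2 difference of 1.40 ± 0.26. SLC1, which acylates lysophosphatidic acid, averaged 199.9 ± 46.0 CPM in the mutant and 516 ± 113 CPM in the wild type (−1.37 ± 0.23), and SCT1, the glycerol phosphate acyltransferase, was lower as well (−0.72 ± 0.20). SCT1 did not pass without either of the untreated mutant libraries (adjusted p = 0.0503 without replicate 1 and 0.0682 without replicate 2). The list's median was −0.48, against −0.031 over all tested genes. With acid 0 of 6 passed in edgeR, with 3 at an unadjusted p under 0.05 and 2 called by DESeq2.

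Sterol supply, the acceptor side of ARE1, had a median of 0.50 between the untreated strains, against −0.031 over all tested genes. In the untreated mutant 6 of 13 genes were higher and 2 lower, beside 38.1% of all tested genes that passed and 22.8% that passed as higher. Without replicate 1 of the untreated mutant this was 4 higher and 1 lower, without its replicate 2 it was 3 and 0, without replicate 3 of the untreated wild type it was 3 and 2, and without the 3 libraries that stood apart it was 7 and 2. The count also moved with the model. It was 3 higher and 1 lower in a fit to only the groups compared. With replicate number added to the fit, by title or by description, it was 4 and 2. ERG6, sterol methyltransferase, averaged 108.5 ± 5.92 CPM in the mutant (n = 2) and 20.1 ± 7.76 CPM in the wild type (n = 3), a log2 difference of 2.44 ± 0.31. ERG13, which makes hydroxymethylglutaryl-CoA, differed by 2.04 ± 0.32, and ERG12, mevalonate kinase, by 1.32 ± 0.24. With acid 1 of 13 was higher in the mutant, ERG10 (1.04 ± 0.22), an acetyl-CoA acetyltransferase, beside 10.7% of all tested genes that passed. Of the 13, 8 had an unadjusted p under 0.05 and 2 were called by DESeq2. The median was 0.45, against 0.026 over all tested genes. The edgeR count rested on single libraries. It was 5 higher without replicate 1 of the treated wild type, 7 without the 3 libraries that stood apart, and 0 without replicate 3 of the treated mutant or without replicate 2 or 3 of the treated wild type.

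In the response to acid, 6 of 13 sterol genes rose in the mutant, beside 17.6% of all tested genes, and 7 rose and 1 fell in the wild type, beside 56.5%. In the mutant 1 rose without replicate 1 of its untreated libraries, 2 without replicate 2 of them, 3 without its treated replicate 3, and 8 without the libraries that stood apart. ERG6 passed as higher in both strains, by 1.42 ± 0.33 in the mutant, against 3.19 ± 0.30 for the wild type. The call in the mutant was lost without either of its untreated libraries (adjusted p = 0.0756 without replicate 1 and 0.0626 without replicate 2). The response difference passed for 3 of 13 sterol genes, beside 25.5% of all tested genes. IDI1, isopentenyl diphosphate isomerase, fell with acid in the wild type (−2.18 ± 0.35) and did not pass in the mutant (−0.28 ± 0.37). ERG8, phosphomevalonate kinase, rose in the mutant (1.01 ± 0.25) and did not pass in the wild type (−0.16 ± 0.22). The response difference was negative for ERG6 (−1.76 ± 0.42, adjusted p = 0.0106). It was positive for IDI1 (1.90 ± 0.51, adjusted p = 0.0187) and ERG8 (1.17 ± 0.33, adjusted p = 0.0243). IDI1 did not pass without replicate 2 of the untreated mutant (adjusted p = 0.0878). ERG8 did not pass without replicate 1 of the untreated mutant, replicate 2 or 3 of the treated mutant, or replicate 3 of the treated wild type (adjusted p of 0.0542 to 0.0811).

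Of the 8 genes of acyl-CoA supply, the response difference (mutant minus wild type) passed as positive for 5, beside 25.5% of all tested genes that passed. There were 4 without the 3 libraries that stood apart, and 3 without replicate 2 of the untreated mutant, replicate 3 of the treated mutant, replicate 3 of the untreated wild type, or replicate 2 or 3 of the treated wild type. The 5 genes all passed as lower with acid in the wild type, and none of them passed in the mutant in edgeR. Responses in the mutant and the wild type were −0.29 and −1.71 for FAS1, −0.40 and −1.89 for FAS2 and 0.058 and −0.98 for ACC1. They were −0.69 and −1.95 for ACL1 and −0.89 and −2.52 for ACL2. In the untreated mutant ACL1 and ACL2 averaged 1713 ± 780 and 1453 ± 660 CPM, a wide spread. The response differences of ACC1 (1.04 ± 0.31) and ACL1 (1.26 ± 0.40) did not pass without replicate 3 of the treated mutant. They also did not pass without replicate 3 of the treated wild type. Those of FAS1, FAS2 and ACL2 passed in both of these fits. DESeq2 called 2 of 8 as lower in the mutant. Without acid 0 of 8 genes passed between the strains in edgeR, beside 38.1% of all tested genes. Of the 8, 2 had an unadjusted p under 0.05 and 0 were called by DESeq2. With acid 5 of 8 were higher in the mutant and none passed as lower, beside 10.7% of all tested genes that passed. The list's median was 0.96, against 0.026 over all tested genes. Without any 1 of the 6 treated libraries, or without the 3 that stood apart, 3 of 8 were higher. FAS2 and FAS1, the fatty acid synthase subunits, differed by 1.51 ± 0.22 and 1.47 ± 0.23, and ACC1, acetyl-CoA carboxylase, by 1.29 ± 0.21, and these 3 passed in each of those fits. In the same libraries DGA2 and LRO1 did not pass and lay at −0.68 and −0.12. The 2 intracellular triacylglycerol lipase genes, TGL3 and TGL4, did not pass between the strains in either condition (0 of 2 in edgeR and in DESeq2, with 1 at an unadjusted p under 0.05 with acid and 0 without).

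**Figure D4:**
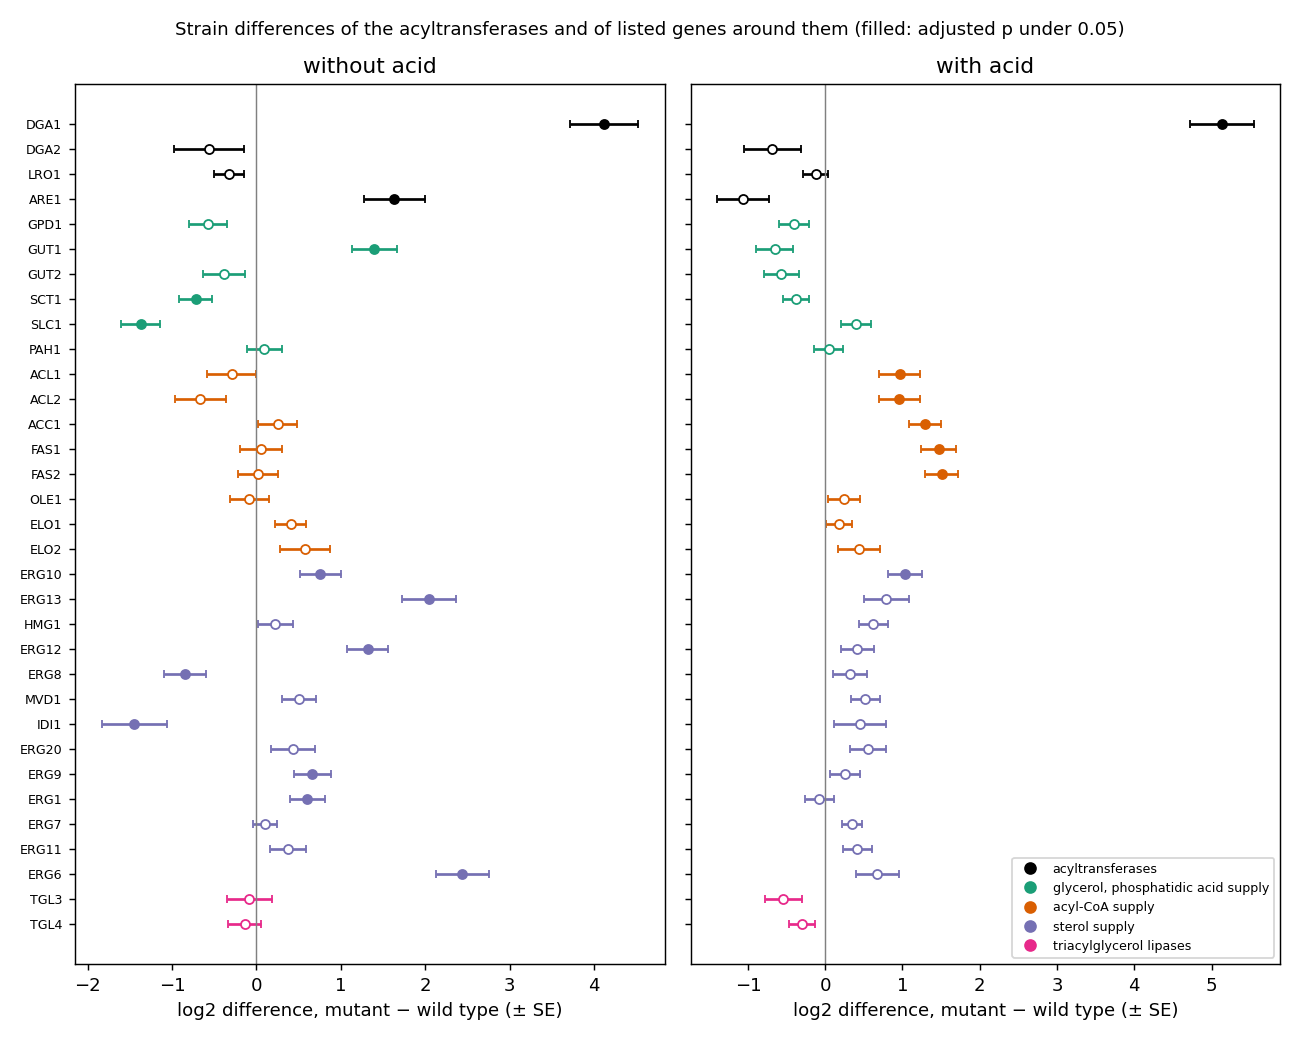
Log2 difference, mutant minus wild type, of the 4 acyltransferase genes and of 29 listed genes of supply and hydrolysis (± SE), without acid at left and with acid at right, with filled points for an adjusted p under 0.05. DGA1 lies apart at 4.11 and 5.14, ARE1 lies at 1.63 at left and −1.06 at right, and FAS1 and FAS2 are filled at right, at 1.47 and 1.51, and open at left.

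In the response of the wild type to acid, 6 of 8 acyl-CoA supply genes fell and 1 rose, beside 56.5% of all tested genes that passed. The 3 with the smallest adjusted p were ACL2, an ATP citrate lyase subunit (−2.52 ± 0.28), FAS2 (−1.89 ± 0.22) and FAS1 (−1.71 ± 0.23). In the response of the mutant 1 of 8, the elongase ELO1, rose (0.61 ± 0.19), beside 17.6% of all tested genes, with 4 of 8 at an unadjusted p under 0.05 and 3 called by DESeq2. ELO1 did not pass without the 3 libraries that stood apart (adjusted p = 0.0508), without either untreated mutant library, or without replicate 1 or 3 of the treated mutant (adjusted p of 0.0924 to 0.177). Without replicate 2 of the untreated mutant, 3 of 8 fell and none passed as higher. Of glycerol and phosphatidic acid supply, GUT1 rose (2.55 ± 0.25) and SLC1 fell (−1.95 ± 0.21) in the wild type. In the mutant 0 of 6 passed with all libraries (edgeR, with 0 at an unadjusted p under 0.05 and 0 with DESeq2). There GUT1 lay at 0.50 ± 0.27, with an untreated level of 1851 ± 717 CPM (n = 2). That spread is wide, so the count does not show that GUT1 was unresponsive in the mutant. GUT1 had a negative response difference (−2.05 ± 0.36, adjusted p = 0.00194), and SLC1 a positive one (1.77 ± 0.30, adjusted p = 0.00175). In the wild type TGL4 rose by 0.57 ± 0.17 and TGL3 did not pass. Without replicate 3 of the treated wild type TGL4 did not pass (adjusted p = 0.069).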

How the data were processed

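Directional libraries of total RNA (NEBNext Ultra II) were read on an Illumina NovaSeq, per the labels' protocols. Alignment and counting tools listed in the submitters' processing notes are STAR 2.7.9a and HTSeq 0.11.0, beside SAMtools 1.9, DESeq2 1.32.0 and FastQC 0.11.7. Build, annotation and strand setting were not given in the sources used here, so antisense or overlapping reads are not separated. The deposited counts are whole reads per gene. The deposited normalized signal was checked and holds the same reads over a constant for each library; it entered no test. Tests used edgeR 4.0.16 in R 4.3.3 (limma 3.58.1): filterByExpr, TMM scaling, 1 mean per group over 11 libraries, quasi-likelihood F test with robust=TRUE, Benjamini-Hochberg adjustment over 6301 genes and a threshold of 0.05. SE is the absolute log2 difference divided by the square root of F. DESeq2 1.42.0 was an alternative. The scripts were run on simulated independent counts with few changed genes and no library that stood apart. That setting differs from these data, so it checks the code and not the calls given here. The genes and lists were chosen with earlier results of these data known. List genes named for a comparison were among the 3 per list with the smallest adjusted p of those that passed. For the response difference all list genes that passed were named, and their acid responses are given with it. The 2 lipase genes were named throughout. Of 45 listed tags, 12 needed an annotation that was not at hand and were not used. Levels were not compared between genes, because gene lengths were not used here. The main fit did not pair libraries by replicate number.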

Additional observations from a re-analysis of the deposited data

Results flagged for a closer look

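The response of ARE1 to hexanoic acid differed between the strains by −2.70 on the log2 scale (mutant minus wild type, edgeR adjusted p = 0.00259). It was singled out because the test of the difference itself passed. ARE1 was lower with acid than without in the mutant by means of 209.5 and 277 CPM, a difference that did not pass, and higher with acid in the wild type, at 438 against 89.5 CPM.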

How the results depend on the processing

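Of 328 repeat values for the 4 genes, 305 kept their direction and side of the threshold, and 68 of 82 counts of all called genes stayed within 1.5 times. For the supply and hydrolysis genes named above, refitted after seeing the data, 515 of 558 repeat values kept both, 43 lost their call and 0 turned. The causes of the others were not tested. Scaling by total counts only turned LRO1 between the treated strains to 0.020, moved the median of all genes there by 0.13, and put 62.3% of calls on the higher side, against 46.8%. DESeq2 called 1057 genes between the treated strains and passed ARE1 (−1.08). Whether replicate numbers pair the libraries was not settled. Same-numbered libraries deviated together with r over 0.1 in 2 of 15 pairs, and differently numbered ones in 8 of 30. Deviations from the mean of 2 or 3 libraries cancel out within each group, so few values of r over 0.1 cannot exclude pairing. A replicate block by title number called 739 genes for acid in the mutant (1112 without it) and 391 between the treated strains (673 without it). A replicate block by description number called 409 between the treated strains and turned DGA2 for acid in the wild type to 0.0031, and neither block changed a call of the 4 genes. A fit to only the groups compared called 659 genes for acid in the mutant. Without the 3 libraries that stood apart, chosen after seeing the data, 1380 genes were called between the treated strains, DGA2 (−1.09) and ARE1 (−1.59) passed there, DGA2 passed between the untreated strains (−0.89), and 3 values that did not pass changed sign, DGA1 for acid in the mutant (−0.027), LRO1 for acid in the wild type (0.11) and the LRO1 response difference (−0.0072).

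Leaving out 1 library at a time, called genes ran from 447 to 952 for acid in the mutant, 134 to 768 between the treated strains and 1375 to 2255 between the untreated ones. For acid in the mutant, DGA1 ran from −0.026 to 0.79, DGA2 from −0.34 to 0.015, LRO1 from −0.025 to 0.25 and ARE1 from −0.75 to 0.057. For acid in the wild type, DGA2 ran from −0.39 to 0.23 and LRO1 from −0.18 to 0.063. ARE1 ran from 1.17 to 1.98 between the untreated strains and from −1.33 to −0.80 between the treated ones, and the DGA2 response difference from −0.41 to 0.21. The untreated mutant then rests on 1 library, assumed to vary like the other groups.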
